A study of Mus musculus with 12 samples.

Results

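The Etl4 knockout line called line 2 was compared with its wild-type (WT) parent, the line OdG of haploid embryonic stem cells (ESCs) of androgenetic origin from C57BL/6 mice. The comparison used the 2 libraries titled as Etl4 KO 2 and the 2 titled as OdG, which are 4 of the 12 RNA-seq libraries of the series, and it covers all genes expressed in them. The 2 libraries of a further knockout (KO) line of OdG, line 1, lie in the same count table and entered the fit. A second parental line, EG1, has 3 WT and 3 Etl4 KO libraries in a table of its own. All groups share the strain, the androgenetic origin and the haploid ESC type, and no other treatment, agent or allele is given in the labels. The labels describe neither the edit, nor whether a KO line is 1 clone, nor whether replicates came from separate cultures. The p-values therefore rest on the spread among these libraries alone, and that spread may be technical.

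Androgenetic haploid ESCs are derived from embryos whose chromosomes come only from sperm, so each gene is present in a single copy of paternal origin. Such cells tend to become diploid during culture, and the series is titled for a screen in which loss of Etl4 stabilised haploidy. Etl4, also named Skt, encodes a large coiled-coil protein known from the development of the notochord and the intervertebral discs. ESCs rely strongly on glycolysis, hold a network of naive pluripotency factors, and contain rare cells that resemble the 2-cell embryo. Many germline genes, imprinted genes and genes of the X-linked Rhox cluster are held silent in them by DNA methylation.

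Total counts were 16867301 and 16570870 in the WT libraries and 16392710 and 17797573 in the libraries of line 2, so that 1 CPM (a count scaled to the size of its library) stood for 16.4 to 17.8 counts. Replicates differed by more than sampling noise in both groups (chi-square per degree of freedom 3.86 in WT and 1.91 in line 2). Of the 24421 symbols of the table, 14413 passed the filter on low counts and were tested. Scaling used TMM factors within each table, and the OdG and EG1 tables were scaled separately. Fold changes are on the log2 scale with a standard error (SE), and every adjusted p comes from edgeR's quasi-likelihood test with Benjamini-Hochberg adjustment over all tested genes. A gene is said to have risen or fallen where its adjusted p lies under 0.05. CPM take no account of gene length, so levels are compared between samples and not between genes.

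Etl4 transcript was reduced but still counted in line 2. The gene (mm10 chromosome 2, 19910207 to 20810535) was at 210 and 206 CPM in the WT libraries, at 110 and 114 CPM in line 2, and at 97.2 and 101 CPM in line 1. All 4 KO libraries lay below both WT libraries. The log2 fold change of line 2 over WT was -0.89 ± 0.04 (SE, adjusted p = 4.4e-12), and line 2 kept more Etl4 than line 1 (log2 0.18, adjusted p = 0.0032). In EG1 the level was 263 ± 2.75 CPM in WT and 132 ± 1.34 CPM in KO (SD, n = 3 each). The reads give the amount of transcript and not whether it can be translated.

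Line 2 differed from WT over most of the expressed genes. Of 14413 tested genes, 8628 (59.9%) were called, with 4329 higher (30%) and 4299 lower (29.8%). The median absolute log2 fold change was 0.31, and 1773 called genes changed at least 2-fold, of which 692 were higher (4.8% of tested genes) and 1081 lower (7.5%). The libraries of the 2 groups did not overlap for 11384 genes (79%). A 4-fold change or more (log2 of at least 2) was reached by 227 genes that rose and 172 that fell, and an 8-fold change by 73 that rose and 19 that fell. The count of 2-fold changes was 826 when genes needed 5 CPM in 2 libraries to be tested, and 681 when the test was against a 2-fold change (edgeR's glmTreat).

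Sorted by WT level, the large changes fell as follows. Among 1240 tested genes under 1 CPM in WT, 359 rose and 93 fell at least 2-fold. Among 3733 genes at 1 to 10 CPM, 262 rose and 610 fell by that much, and among 6987 genes at 10 to 100 CPM, 71 rose and 322 fell. Of 2453 genes at 100 CPM or more in WT, 0 rose and 56 fell at least 2-fold. The WT level is also the denominator of the fold, and a gene low in WT enters the test only if a KO group holds enough counts. Rises therefore collect in the low classes and falls in the high ones by construction, and the counts are given as a description.

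**Figure D1:**
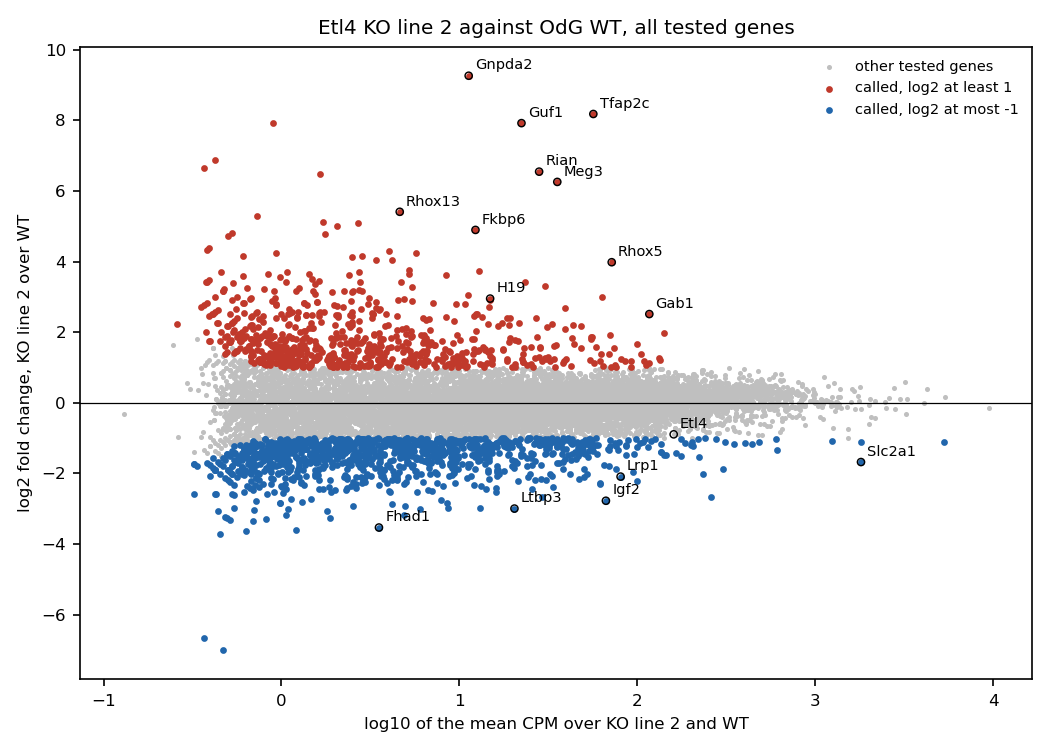
Each point is 1 of 14413 tested genes, with the log10 of its mean CPM over line 2 and WT on the x axis and the log2 fold change of line 2 over WT on the y axis; red and blue mark the 692 called genes that rose and the 1081 that fell at least 2-fold. Large rises lie mostly at the left, while the 56 large falls among genes at 100 CPM or more in WT, such as Slc2a1 and Lrp1, extend to the right.

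Tfap2c, which encodes the transcription factor AP-2 gamma of trophoblast and germ cells, was nearly silent in the WT libraries and abundant in line 2. It was at 0.29 and 0.475 CPM in WT, at 115 and 110 CPM in line 2, and at 10.9 and 9.97 CPM in line 1. The rise over WT was 8.18 ± 0.14 (log2, SE, adjusted p = 8.7e-18), and line 2 also exceeded line 1 (log2 3.43, adjusted p = 1e-15). EG1 held 86.7 ± 2.69 CPM in WT and 85.5 ± 1.23 CPM in KO (SD, n = 3). OdG WT held the lowest level of the 5 groups, and line 1 lay between OdG WT and line 2.

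A pair of neighbouring genes on chromosome 5 showed the same low WT level. Guf1, a GTPase of mitochondrial translation (69556910 to 69574652), was at 0.174 and 0.178 CPM in WT and at 46.4 and 42.5 CPM in line 2 (log2 7.92 ± 0.18, adjusted p = 7.4e-16). Gnpda2, a glucosamine-6-phosphate deaminase (69574998 to 69592332), had 1 count over both WT libraries and 771 over both libraries of line 2, a ratio of 769 (95% counting interval 138 to 30401). Both genes had similar levels in line 1, at 47.9 and 46.7 CPM for Guf1 and 16.8 and 18.3 CPM for Gnpda2. In EG1 WT they held 40.1 ± 1.14 and 16.4 ± 1.63 CPM (SD, n = 3). The near absence of the pair was thus seen in OdG WT alone among the 5 groups of the series, and line 2 did not differ from line 1 at Guf1 beyond the threshold (log2 -0.09, adjusted p = 0.32).

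Other large rises set line 2 apart from line 1 as well as from WT. Meg3 and Rian, noncoding RNAs of the imprinted Dlk1-Dio3 region, were at 0.869 and 0.95 CPM and at 0.464 and 0.712 CPM in WT. In line 2 Meg3 was at 68.4 and 71.7 CPM (log2 6.26 ± 0.13) and Rian at 53.7 and 57.3 CPM (log2 6.55 ± 0.15). Line 1 stayed between 0.571 and 0.762 CPM for both. Fkbp6, an immunophilin of the germline piRNA pathway, went from 0.753 and 0.831 CPM in WT to 25 and 22.6 CPM in line 2 (log2 4.90 ± 0.18), with 0.762 and 0.825 CPM in line 1. The X-linked homeobox gene Rhox13 went from 0.232 and 0.178 to 8.96 and 9.1 CPM (log2 5.41 ± 0.29), and Ufsp2, a protease of the UFM1 modifier, from 0.29 and 0.831 to 10.7 and 10.8 CPM (log2 4.26 ± 0.26). In each of these genes line 1 and WT overlapped or nearly met, and line 2 lay far above both. Pramel7, Pramel6, Pet2 and Magea8 completed the 12 largest rises among genes reaching 5 CPM in line 2, with log2 fold changes of 5.09, 4.17, 4.31 and 4.05.

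**Figure D2:**
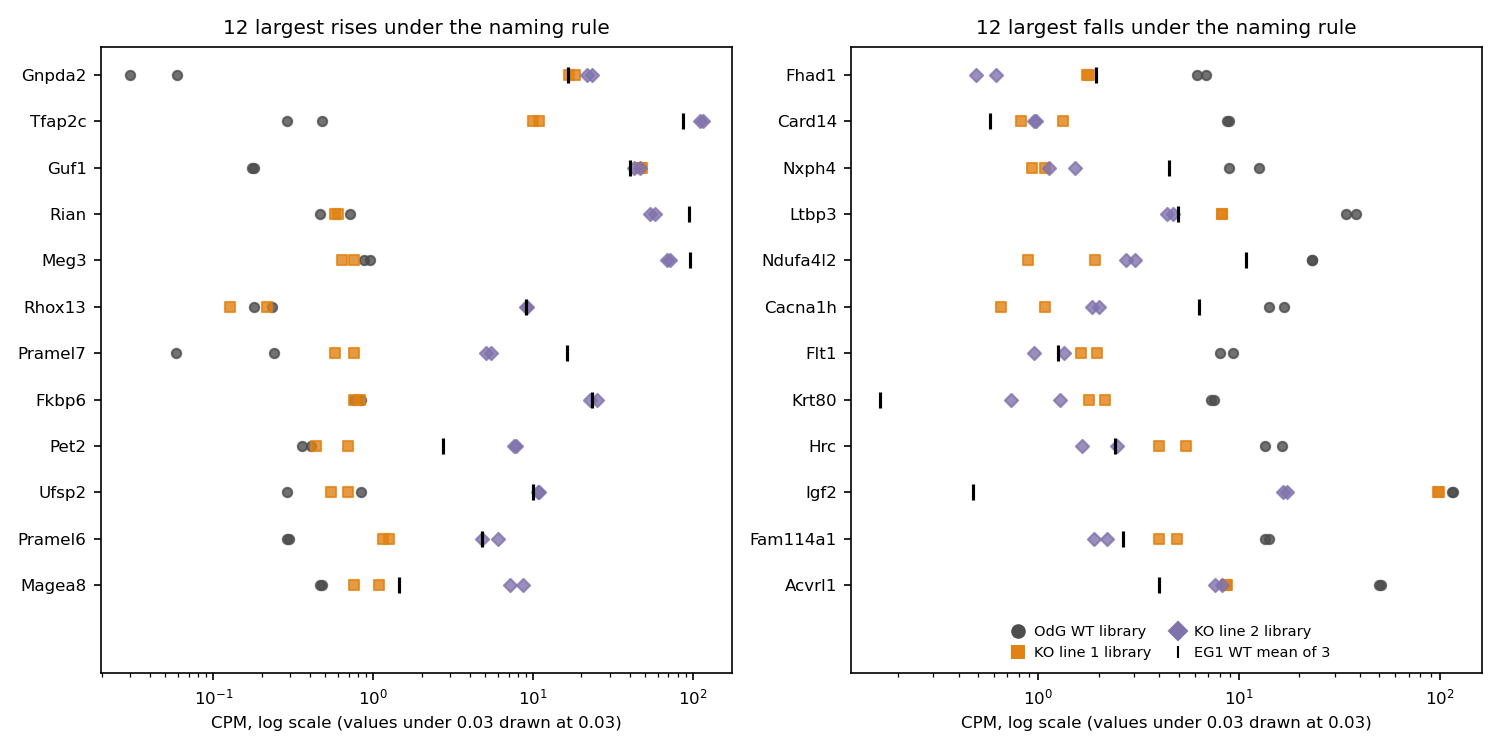
CPM on a log x axis for the 12 largest rises (left) and 12 largest falls (right) of line 2 over WT under the naming rule; each marker is 1 OdG library (circles WT, squares line 1, diamonds line 2) and the vertical tick is the EG1 WT mean of 3 libraries. The diamonds lie apart from the circles in every row because the naming rule requires it. The squares lie with the circles for Meg3, Rian, Rhox13 and Fkbp6 and with the diamonds for Guf1, Card14 and Acvrl1.

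The 12 largest falls, with the same limit of 5 CPM, include the receptor genes Flt1 and Acvrl1, the channel subunit gene Cacna1h and the growth factor gene Igf2. Fhad1, a gene for a forkhead-associated domain protein, went from 6.84 and 6.17 CPM in WT to 0.488 and 0.618 CPM in line 2 (log2 -3.53 ± 0.26). Ltbp3, which encodes a binding protein of latent TGF-beta, went from 38.3 and 34.1 to 4.7 and 4.38 CPM (log2 -3.0 ± 0.11). Acvrl1, a receptor of the TGF-beta family, went from 50 and 51.1 to 8.23 and 7.58 CPM (log2 -2.68 ± 0.089). Cacna1h, a subunit of T-type calcium channels, fell by 2.99 on the log2 scale, and Flt1, a receptor for VEGF, by 2.92. The naming rule required the libraries of line 2 and WT not to overlap, so their separation at these genes is part of the rule. Card14, Nxph4, Ndufa4l2, Krt80, Hrc, Igf2 and Fam114a1 were the others, with log2 fold changes from -3.18 to -2.75.

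Some abundant genes moved nearly as far. Rhox5, the best known gene of the Rhox cluster, was at 8.81 and 8.25 CPM in WT and at 140 and 130 CPM in line 2 (log2 3.98 ± 0.075), with 13.4 and 14.3 CPM in line 1. Gab1, an adaptor of receptor tyrosine kinases, was at 36.9 and 32.7 CPM in WT and at 199 and 198 CPM in line 2 (log2 2.51 ± 0.051), while line 1 was at 38 and 39.6 CPM. Usp26 rose by 3.0 ± 0.07, the actin-binding Tmsb4x by 1.99 ± 0.048 and the laminin subunit gene Lama3 by 1.91 ± 0.057 (log2, SE). In the other direction the endocytic receptor gene Lrp1 was at 135 and 125 CPM in WT and at 29.9 and 31.2 CPM in line 2 (log2 -2.09 ± 0.056). The matricellular gene Tinagl1 fell by 2.29 and the myosin heavy chain gene Myh7b by 2.28 on the log2 scale. In line 1 Gab1 lay close to WT, while Lrp1, at 55.5 and 53.5 CPM, lay between WT and line 2.

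At most 3 counts over 1 of the groups were seen for 28 called genes of the 14413 tested, of which 22 were higher in line 2 and 6 lower. A gene picked for near absence in 1 group can be called only if the other group is higher. Direction and a large ratio thus follow from the rule, and the counts and ratios are a description. The 6 with the most counts in the other group, all higher in line 2, were Gnpda2 and those given here. Mirg, a further noncoding RNA next to Rian, had 1 count over the WT libraries and 112 over those of line 2 (ratio 112, 95% counting interval 19.6 to 4449.5). Cox7b2, a testis-type subunit gene of cytochrome c oxidase, had 0 counts in WT and 61 in line 2, which is at least 20.3-fold higher with 3 counts over the group taken as the limit that 0 allows. Apoh had 3 counts in WT against 61 in line 2 (ratio 20.3, interval 6.62 to 101), Rhox2f had 2 against 40 (ratio 19.9, interval 5.17 to 170.3) and Cyp4a12b had 3 against 39 (ratio 12.96, interval 4.12 to 65.6). The intervals cover counting error only, since reads without molecular identifiers are not independent molecules.

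Glucose metabolism fell broadly. Of 23 tested glycolysis and glucose or lactate transport genes, 22 fell and 1 rose, with a median log2 fold change of -0.92. Over all tested genes 29.8% fell and the median was -0.01. The glucose transporter Slc2a1 was at 2763 and 2743 CPM in WT and at 855 and 864 CPM in line 2 (log2 -1.68 ± 0.024, adjusted p = 3.5e-18). Slc2a3, a further glucose transporter, was at 7343 and 7211 CPM in WT and at 3334 and 3374 CPM in line 2 (log2 -1.12 ± 0.019), below line 1 at 4535 and 4570.2 CPM (log2 -0.44, adjusted p = 4.7e-12). The lactate exporter Slc16a3 was at 378 and 367 CPM in WT and at 93.1 and 91.9 CPM in line 2 (log2 -2.01 ± 0.041). The ATP-producing kinase Pgk1 fell by 1.1 on the log2 scale. Summed over the list, WT held 27281 and 27198 CPM and line 2 held 14847 and 15053, so every WT library lay far above both libraries of line 2. Gapdh (27.7 CPM in WT, 56.4 in line 2, the only rise) and Eno1 (1.58 and 0.502 CPM) have near-identical copies in the genome that can take up their reads, and their values are uncertain.

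Targets of the hypoxia response, which HIF factors switch on when oxygen is low, fell with them. Of 24 tested genes 20 fell and 0 rose, against 29.8% and 30% of all tested genes (median log2 -1.18). The summed level was 6522 and 6453 CPM in WT against 2789 and 2809.9 CPM in line 2. Ero1l, an oxidase of the endoplasmic reticulum, was at 479 and 480 CPM in WT and at 130 and 129 CPM in line 2 (log2 -1.89 ± 0.037). The annexin gene Anxa2 was at 160 and 170 CPM in WT and at 35.7 and 34.7 CPM in line 2 (log2 -2.23 ± 0.052). Ndrg1 was at 261 and 259 CPM in WT, at 95.7 and 87.5 CPM in line 2 and at 48.5 and 47.7 CPM in line 1 (line 2 over line 1, log2 0.93, adjusted p = 1.7e-10). Of the 24 genes, 16 were higher in line 2 than in line 1 and 2 were lower (background 18.6% higher and 19.2% lower of all tested genes). The fall was thus smaller in line 2 for most of them. Kdm3a, Stc2, Car9 and Car12 were not called. The list shares Slc2a1 and Hk2 with the glycolysis list.

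Glycogen enzymes moved less uniformly, with 11 of 16 tested genes lower and 3 higher, beside 29.8% and 30% of all tested genes (median log2 -0.46). Pgm2, a phosphoglucomutase, was at 205 and 210 CPM in WT and at 75.3 and 72.6 CPM in line 2 (log2 -1.49 ± 0.041). The liver-type glycogen phosphorylase gene Pygl was at 27.1 and 26.4 CPM in WT and at 6.1 and 7.13 CPM in line 2 (log2 -2.01 ± 0.11), and the synthase Gys1 fell by 0.93. Pygb, the brain-type phosphorylase, rose by 0.36.

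The promoters of 2 hypoxia genes that fell are shown because HIF binds the core ACGTG. Each line gives the 250 bases before the first start listed by RefSeq (GRCm38.p6), 5′ to 3′ on the strand of the gene, with matches to ACGTG or its reverse complement CACGT in capitals. Slc2a1 lies on the plus strand (chr4:119108495-119108744) and Ero1l on the minus strand (chr14:45318573-45318822).
Slc2a1: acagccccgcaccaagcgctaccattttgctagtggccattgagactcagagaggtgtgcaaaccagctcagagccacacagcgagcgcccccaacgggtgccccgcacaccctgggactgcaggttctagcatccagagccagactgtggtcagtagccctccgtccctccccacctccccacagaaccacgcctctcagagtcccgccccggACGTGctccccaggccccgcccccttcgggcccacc
Ero1l: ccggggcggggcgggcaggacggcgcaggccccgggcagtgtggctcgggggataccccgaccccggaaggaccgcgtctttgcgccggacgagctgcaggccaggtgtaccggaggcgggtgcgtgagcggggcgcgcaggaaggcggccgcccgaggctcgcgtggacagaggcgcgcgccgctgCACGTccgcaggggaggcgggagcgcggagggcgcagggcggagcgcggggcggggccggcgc

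Each of these windows holds 1 match. Of the 20 hypoxia genes with a promoter in the table (of 24), 13 (65%) held ACGTG on either strand, against 4477 of 27025 promoters (16.6%) in the whole table. Among tested genes the share was 2466 of 11346 (21.7%). Only 78.7% of tested genes have a promoter there, so this second share may not stand for all of them. For glycolysis 9 of 22 promoters (40.9%) held ACGTG. The core contains the bases CG, and promoters differ in how many they hold. The median count of CG per window was 20.5 for hypoxia genes, 15 for tested genes and 6 over the whole table. The whole table is thus poorer in CG than the genes compared, and the shares are a description. A match is a string of letters and does not show that a factor is bound there.

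Sterol and lipid genes fell in part. Among 25 cholesterol synthesis and uptake genes 16 fell and 2 rose, against 29.8% and 30% of all tested genes (median log2 -0.26). Hmgcs1, which makes HMG-CoA, was at 279 and 297 CPM in WT, at 120 and 127 CPM in line 2 and at 220 and 222 CPM in line 1 (line 2 over WT, log2 -1.22 ± 0.042). Insig1, the sterol sensor that retains SREBP, was at 549 and 528 CPM in WT, at 296 and 299 CPM in line 2 and at 223 and 221 CPM in line 1. The 2 genes were thus ordered in opposite ways between the KO lines. Of 15 fatty acid synthesis genes 10 fell and 5 rose. The desaturases Scd1 (558 and 547 CPM in WT, 249 and 250 in line 2, log2 -1.15) and Scd2 (2129 and 1954 CPM in WT, 1028 and 1026 in line 2, log2 -0.99) fell, while the synthase Fasn rose by 0.39 on the log2 scale.

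**Figure D3:**
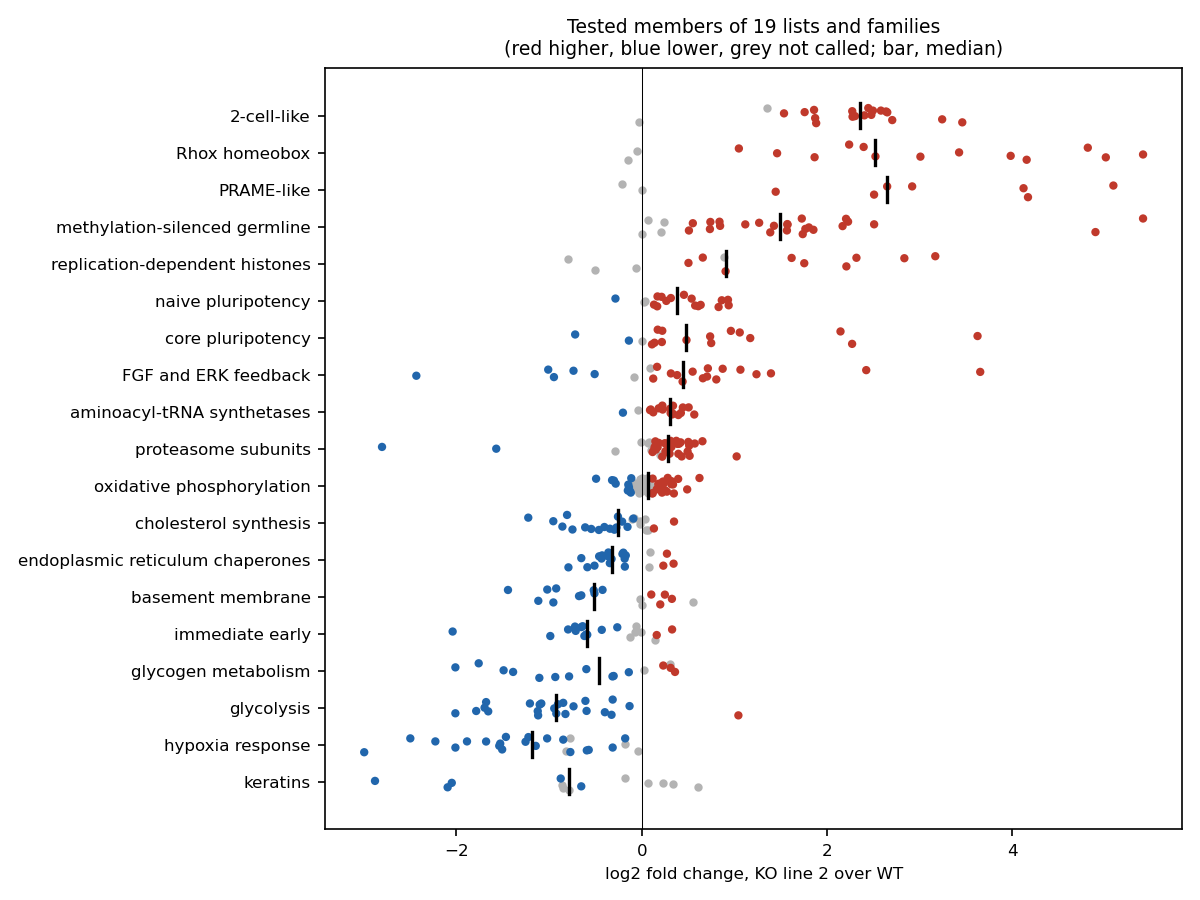
Log2 fold change of line 2 over WT (x axis) for the tested members of 19 gene lists and families; red points were called higher, blue lower, grey not called, and the bar is the median. The 2-cell-like, Rhox, PRAME-like and germline groups lie to the right of 0 with medians of 2.35, 2.52, 2.65 and 1.5, and glycolysis and hypoxia genes to the left with medians of -0.92 and -1.18; many members of the first 3 groups passed the filter only through line 2.

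Germline genes that DNA methylation silences in somatic cells rose in line 2, above both WT and line 1. Of the 29 genes listed 28 were tested, and 24 rose and 0 fell, against 30% and 29.8% of all tested genes (median log2 1.5). Sohlh2, a transcription factor of germ cell development, was at 17.5 CPM in both WT libraries, at 78.7 and 78.5 CPM in line 2, and at 15.1 and 17.1 CPM in line 1 (line 2 over WT, log2 2.17 ± 0.073, adjusted p = 1e-13). Sycp1, which builds the synaptonemal complex of meiosis, was at 10 and 13.2 CPM in WT, at 56 and 52.6 CPM in line 2, and at 11.6 and 12.8 CPM in line 1 (log2 2.23 ± 0.1). The piRNA-binding protein gene Piwil2 was at 38.2 and 38.4 CPM in WT and at 101 and 99.3 CPM in line 2 (log2 1.39 ± 0.052). Dazl rose by 1.57, Mael by 1.57 and Brdt by 2.21 on the log2 scale. The weakest values were those of Stra8, Sycp3, Tdrd1 and Smc1b, which were not called. All 28 tested genes were higher in line 2 than in line 1. Against the shared WT, 2 rose and 11 fell in line 1 (background 26.8% higher and 26.1% lower). Over all 29 genes the summed level was 457 and 490 CPM in WT, 466 and 457 CPM in line 1, and 1032 and 993 CPM in line 2. The EG1 WT libraries, scaled in their own table, lay between 791 and 799 CPM.

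Promoters of 2 germline genes are shown because many genes of this class carry a CACGTG motif, an E-box bound by MAX and its partner proteins. Both windows shown hold it, while that of Sohlh2, not shown, holds CACGT without the full motif. The 2 windows thus do not stand for the list. As above, the 250 bases before the start listed first in the RefSeq table are given 5′ to 3′ on the strand of the gene, with ACGTG and CACGT in capitals, so that CACGTG appears as 1 run of both. Fkbp6 (chr5:135350045-135350294) and Sycp1 (chr3:102936101-102936350) lie on the minus strand of GRCm38.p6. The start used for Fkbp6 is inside the span of the gene, whose models reach to 135351809, while that of Sycp1 is at the end of its gene.
Fkbp6: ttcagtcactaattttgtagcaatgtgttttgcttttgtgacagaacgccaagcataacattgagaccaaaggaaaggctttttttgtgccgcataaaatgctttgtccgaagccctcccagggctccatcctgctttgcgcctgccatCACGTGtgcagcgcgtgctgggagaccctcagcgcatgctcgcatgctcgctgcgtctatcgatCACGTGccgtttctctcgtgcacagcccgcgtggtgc
Sycp1: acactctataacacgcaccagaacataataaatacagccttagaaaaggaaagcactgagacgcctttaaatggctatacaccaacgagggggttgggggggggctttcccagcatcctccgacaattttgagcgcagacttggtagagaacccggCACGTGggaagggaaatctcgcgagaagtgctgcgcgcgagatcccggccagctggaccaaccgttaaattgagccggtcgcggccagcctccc

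CACGTG occurred in 13 of the 27 germline promoters in the table (48.2%, with 29 genes in the list). It occurred in 1634 of all 27025 promoters (6.05%) and in 961 of the 11346 that belong to tested genes (8.47%). The median count of CG was 14 in the germline windows, 15 for tested genes and 6 over all promoters. The shorter ACGTG, which every CACGTG contains, occurred in 17 of the 27 (63%).

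The Rhox cluster, a set of homeobox genes on the X chromosome, rose alongside. The germline list also holds Rhox13, so the groups are not fully separate. The table lists 31 Rhox genes, 15 were tested, and 13 of these rose and 0 fell (median log2 2.52). Rhox6 and Rhox9 did not pass the test, at 16.8 and 12.6 CPM in WT and 15.2 and 12.1 CPM in line 2. Rhox1 went from 5.07 to 24 CPM (log2 2.24). Over all 31 genes the sum was 45.3 and 51.1 CPM in WT, 54 and 53.9 CPM in line 1, and 224 and 212 CPM in line 2, most of it from Rhox5. In 13 of the 15 genes line 2 exceeded line 1. Copies such as Rhox2 and Rhox4 are nearly identical, so the split of reads among them is uncertain, and several entered the test only through line 2, so the count and the median are a description. With 5 CPM required in 2 libraries, 3 Rhox genes rose.

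Genes of the 2-cell-like state were called higher from very low levels. Of the 26 genes listed 20 were tested, and 18 rose and 0 fell (median log2 2.35). Most of them lie under 1 CPM in WT and passed the filter through line 2, which fixes their direction, so this count and median support nothing by themselves. Calcoco2 was at 11.5 and 12.2 CPM in WT and at 43.7 and 42.4 CPM in line 2 (log2 1.86 ± 0.089). Zscan4d, of the family that marks this state, was at 1.33 and 1.42 CPM in WT, at 7.26 and 7.81 CPM in line 2, and at 2.18 and 1.71 CPM in line 1 (line 2 over WT, log2 2.45 ± 0.2). Tcstv3 went from 0.174 and 0.356 CPM to 2.62 and 3.31 CPM (log2 3.46 ± 0.41). The 5 Zscan4 genes together held 3.77 and 4.57 CPM in WT, 6.69 and 6.6 CPM in line 1, and 24.7 and 23.4 CPM in line 2, below the 115 to 123 CPM of EG1 WT. The summed level of all 26 genes moved much less, from 273 and 300 CPM to 366 and 349 CPM, and Eif1a makes up most of it (265 CPM in WT and 259.7 in line 2). PRAME-like genes behaved similarly, with 7 of 9 tested higher and 0 lower (11 in the table), including Pramel7 at 0.058 and 0.237 CPM in WT and 5.43 and 5.06 CPM in line 2. Reads of Zscan4, Tcstv, Usp17l and PRAME-like genes can be shared among near-identical copies. With 5 CPM required in 2 libraries, which line 2 alone can also meet, the higher genes numbered 3 for the 2-cell-like list, 2 for PRAME-like and 2 for Zscan4 genes.

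**Figure D4:**
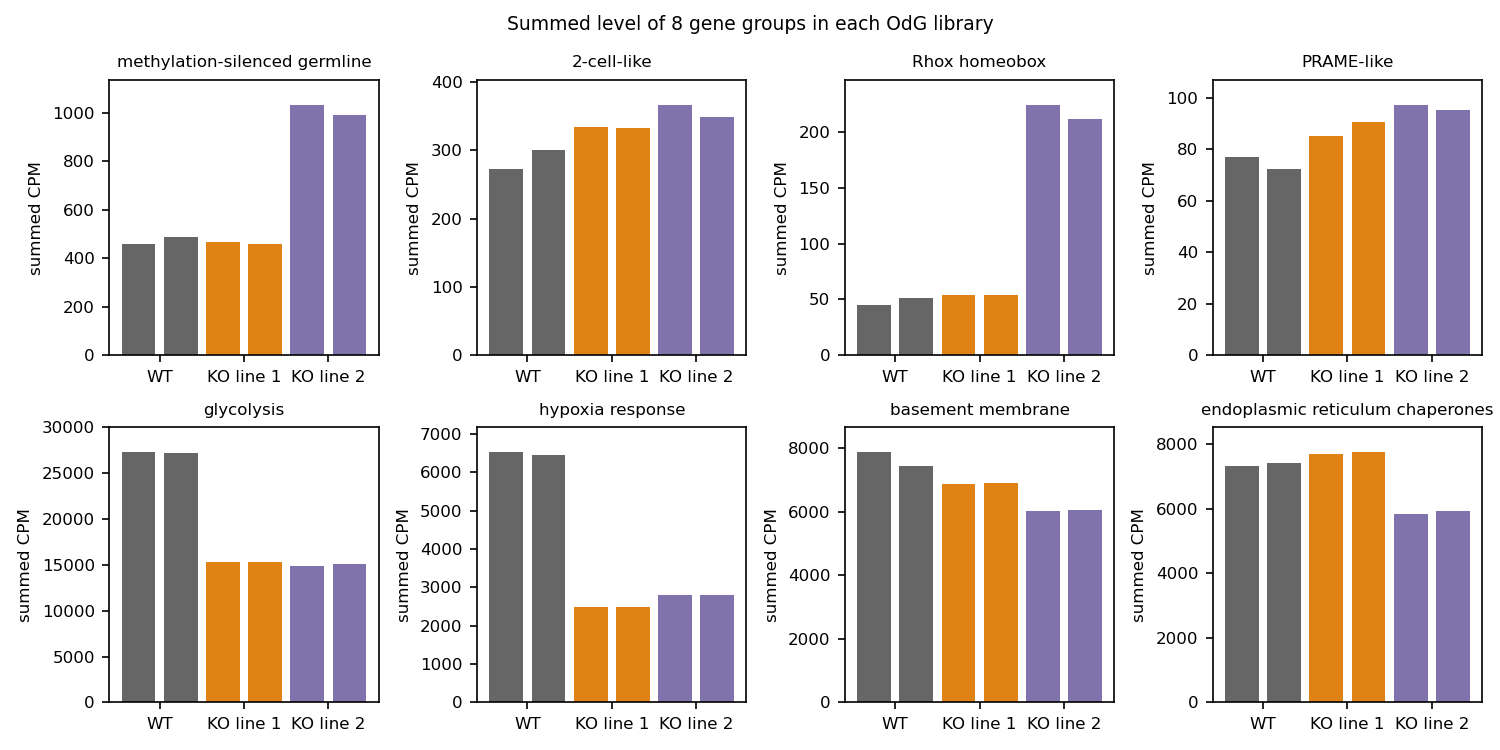
Summed CPM of all listed members of 8 gene groups in each of the 6 OdG libraries (bars, 2 per group; y axes start at 0). Line 2 alone is high for germline and Rhox genes (993 to 1032 and 212 to 224 CPM) and alone is low for endoplasmic reticulum chaperones (5825 to 5915 CPM), while both KO lines are low for glycolysis and the hypoxia response.

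Large rises made up a larger share of tested genes on the X chromosome than over all chromosomes. Of 600 tested X-linked genes, 242 rose (40.3%, against 30% of all tested genes) and 160 fell (26.7%). A rise of at least 2-fold was seen in 94 X-linked genes (15.7%, against 4.8% overall), of which 13 were Rhox and 8 Mage genes and 55 lay under 1 CPM in WT. Genes that low in WT may have entered the test only through line 2, which fixes their direction, so the share is a description. A fall of at least 2-fold was seen in 16 X-linked genes (2.67%). Against line 1, 194 X-linked genes were higher in line 2 (32.3%) and 106 lower (17.7%), beside 18.6% and 19.2% of all tested genes. Chromosome 11 showed the largest share of falls of that size among the chromosomes tested, with 134 of 1203 genes (11.1%), and 35.9% of its genes were called lower. Chromosomes 15 (10.5%) and 6 (10.3%) were close to it in falls of that size. Nothing was tested as a set here, and the shares describe these 4 libraries.

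**Figure D5:**
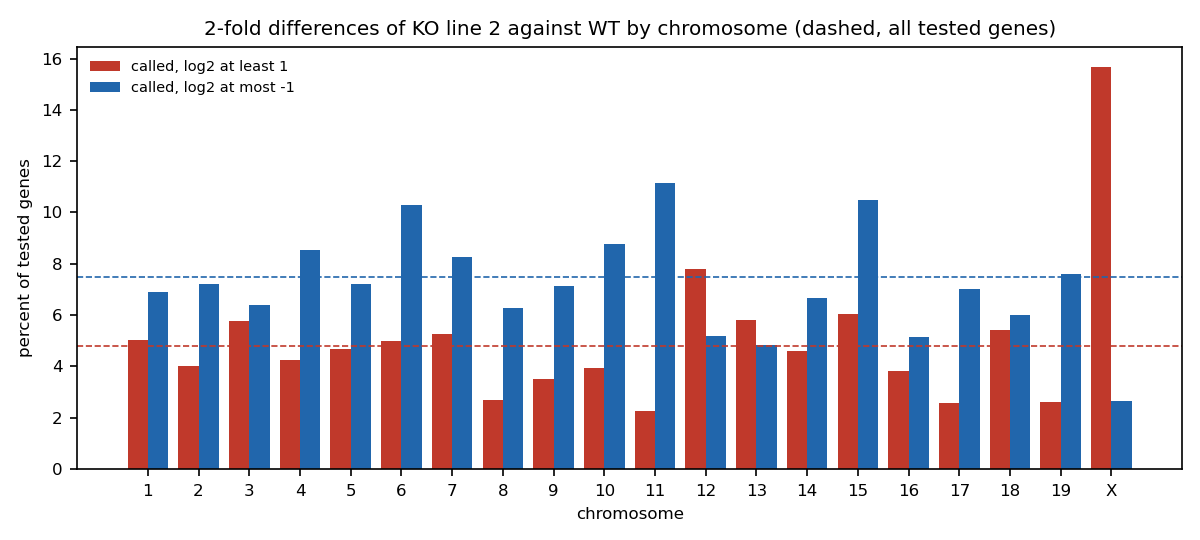
Percent of tested genes on each chromosome (x axis) that rose (red) or fell (blue) at least 2-fold in line 2 against WT; dashed lines give the share over all tested genes (4.8% and 7.5%). The red bar of the X chromosome, at 15.7%, is the highest of the plot. The blue bar of chromosome 11 is the highest among falls, at 11.1%, with chromosomes 15 (10.5%) and 6 (10.3%) close to it.

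Imprinted genes were called in both directions, and a few changed far. Of 21 tested genes known as maternally expressed, 7 rose and 8 fell (5 fell with DESeq2), against 30% and 29.8% of all tested genes. Beside Meg3 (chromosome 12, 109540996 to 109571729), Rian (109603945 to 109661716) and Mirg (109734981 to 109749458), which lie in a row, the growth-restraining RNA H19 rose. It was at 4.23 and 2.55 CPM in WT, at 26.9 and 25.8 CPM in line 2, and at 2.56 and 3.3 CPM in line 1 (line 2 over WT, log2 2.95 ± 0.15, adjusted p = 3.1e-11). Grb10, an adaptor that dampens insulin signalling, was at 20.7 and 21.9 CPM in WT and at 68.8 and 65.5 CPM in line 2 (log2 1.66 ± 0.07). Cd81 fell by 0.47 and Phlda2 by 0.81 on the log2 scale. Cdkn1c, Ube3a and Gnas were not called, with log2 fold changes of 0.28, -0.01 and -0.02.

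Among 26 tested paternally expressed genes 7 rose and 13 fell, against 30% and 29.8% of all tested genes. Igf2, the fetal growth factor gene next to H19 on chromosome 7 (142650768 to 142666816), was at 117 and 115 CPM in WT, at 17.3 and 16.6 CPM in line 2, and at 98.5 and 98.7 CPM in line 1 (line 2 over WT, log2 -2.78 ± 0.055, adjusted p = 1.1e-16). The antisense gene Igf2os overlaps it and went from 3.82 and 4.39 CPM to 1.04 and 0.562 CPM. Since the strand setting is not known, reads of the pair cannot be told apart. Sgce fell by 1.84 ± 0.098, Impact by 0.72 ± 0.038 and Dlk1 by 0.99 on the log2 scale. The amino acid transporter gene Slc38a4 went the other way, from 84.4 and 86 CPM to 163 and 165 CPM (log2 0.95 ± 0.039), and Mest rose by 1.19. In EG1, scaled separately, WT held 0.473 ± 0.134 CPM of Igf2 and 4.22 ± 0.608 CPM of H19 (SD, n = 3).

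The machinery of DNA methylation was higher on the whole. Of 21 tested genes 12 rose and 7 fell, beside 30% and 29.8% of all tested genes, so the falls were near the background share. The de novo methyltransferase gene Dnmt3b was at 80 and 81.6 CPM in WT, at 187 and 190 CPM in line 2, and at 147 and 154 CPM in line 1 (line 2 over WT, log2 1.22 ± 0.042). Trim28 and Zfp57, which maintain methylation at imprints, rose by 0.74 ± 0.026 and 0.76 ± 0.034. Tet1, which oxidises methylated cytosine, rose by 0.49, Uhrf1 by 0.31 and Dnmt1 by 0.25 on the log2 scale. Dnmt3l, the cofactor of de novo methylation, was at 36.9 CPM in WT and 55.3 CPM in line 2 (log2 0.58), but at 30 CPM in line 1. Tet2, Tet3 and the DNA repair gene Gadd45b fell, by 0.24, 0.33 and 1.13. RNA levels alone were measured, and methylation was not.

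Pluripotency genes were mostly higher, where 30% of all tested genes rose and 29.8% fell. Of 17 core factors 14 rose and 2 fell (median log2 0.48), and of 18 naive factors 15 rose and 1 fell (median log2 0.39). Utf1, a chromatin factor of ESCs, was at 11.4 and 11.6 CPM in WT, at 50.6 and 50.9 CPM in line 2 and at 22.4 and 23.1 CPM in line 1 (line 2 over WT, log2 2.15 ± 0.08). Foxd3 was at 7.77 and 7.12 CPM in WT and at 36.2 and 35.8 CPM in line 2 (log2 2.27 ± 0.095). The naive factor Klf5 was at 157 and 164 CPM in WT and at 313 and 304 CPM in line 2 (log2 0.94 ± 0.039). Changes of the central trio were small for Pou5f1 (log2 0.11) and Sox2 (0.17) and larger for Nanog (0.58). Tdgf1, a Nodal co-receptor, fell from 1558 and 1577 CPM to 947 and 959 CPM (log2 -0.72 ± 0.026), and Stat3 fell by 0.28. Of 15 formative and primed genes 7 rose and 1 fell, with Sox3 (log2 1.62) and Zic2 (log2 0.53) among those that rose and Otx2 (log2 -0.79) and Pou3f1 (log2 -0.12) not called.

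Extracellular matrix and its folding apparatus fell in line 2 below both WT and line 1. Of 17 basement membrane genes 10 fell and 4 rose, against 29.8% and 30% of all tested genes (median log2 -0.51). Serpinh1, the collagen chaperone, was at 372 and 373 CPM in WT, at 186 and 182 CPM in line 2 and at 396 and 394 CPM in line 1 (line 2 over line 1, log2 -1.11, adjusted p = 9.9e-14). The collagen IV chain gene Col4a2 was at 67.1 and 59 CPM in WT, at 22 and 24.4 CPM in line 2 and at 69.6 and 71.1 CPM in line 1 (line 2 over WT, log2 -1.44 ± 0.075). Sparc fell by 0.92 ± 0.03 and Nid1 by 0.68 ± 0.033. Perlecan (Hspg2, log2 0.33) and the laminin gene Lamc1 (log2 0.25) rose. Against line 1, 10 of the 17 were lower and 3 higher. Over the collagen family 14 of 30 tested genes fell and 4 rose. Fewer cells of a type and less RNA per cell cannot be told apart in bulk RNA. The 7 markers of fibroblast feeders summed to 14.7 to 17.3 CPM in WT and to 8.05 to 8.37 CPM in line 2. The drop is that of Col1a1: without it the sum was 5.22 and 4.81 CPM in WT and 5.12 and 5.84 CPM in line 2, Col1a2 and Thy1 were not called (log2 0.21 and 0.11), and Col3a1, Postn, Dcn and Lum lay between 0 and 0.366 CPM in all OdG libraries. The longer feeder list (18 genes, 11 tested) had 3 higher and 3 lower, near the shares of all tested genes. Its sum was 123.9 and 119 CPM in WT and 188 and 180.4 CPM in line 2.

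Chaperones of the endoplasmic reticulum showed the same order, and their list shares P4hb with the basement membrane list. Of 21 tested genes 16 fell against WT and 3 rose, beside 29.8% and 30% of all tested genes (median log2 -0.33). Against line 1, 15 were lower and 0 higher, beside 19.2% and 18.6%. Hsp90b1 was at 1295 and 1253 CPM in WT, at 913 and 940 CPM in line 2, and at 1235 and 1236 CPM in line 1 (line 2 over WT, log2 -0.46 ± 0.027). Hspa5, the luminal chaperone BiP, was at 906 and 919 CPM in WT, at 712 and 711 CPM in line 2, and at 983 and 994 CPM in line 1 (log2 -0.36 ± 0.027). P4hb, a disulfide isomerase, fell by 0.51 ± 0.028 and Dnajc3 by 0.59 ± 0.043. Creld2, Sdf2l1 and Herpud1 rose, by 0.23, 0.34 and 0.27. The summed level of the 21 genes was 5825 and 5915 CPM in line 2, against 7334 and 7400.4 CPM in WT and 7695 and 7747 CPM in line 1. EG1 WT lay between 5924 and 6019 CPM.

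Lineage markers gave no uniform picture. The counts below stand beside 30% of all tested genes that rose and 29.8% that fell. Of 12 tested primitive endoderm genes 6 fell and 1 rose. Gata6 was at 3.3 and 4.04 CPM in WT and at 0.976 and 1.01 CPM in line 2 (log2 -1.88 ± 0.28), whereas Gata4 and Sox17 were not called (log2 0.21 and -0.30), and Lrp2, the endocytic receptor megalin, rose from 1.97 and 3.44 CPM to 17.4 and 20.1 CPM (log2 2.79 ± 0.18). Among 10 tested neural genes 4 rose and 2 fell, with the neurofilament gene Nefm at 1.68 and 1.96 CPM in WT and 21.7 and 26.5 CPM in line 2 (log2 3.72 ± 0.16). Pax6 and Sox1 were not called (log2 0.67 and -0.03). For primitive streak and mesoderm genes 3 of 10 rose and 3 fell, near those shares, with Evx1 higher (log2 2.88 ± 0.3) and Wnt3 lower (log2 -1.44 ± 0.16).

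Trophoblast genes fell in part although Tfap2c rose. Of 15 tested, 8 fell and 2 rose, beside 29.8% and 30% of all tested genes. Krt19 was at 38.2 and 40.5 CPM in WT and at 9.64 and 8.82 CPM in line 2 (log2 -2.09 ± 0.093). Krt8, a keratin of simple epithelia, was at 87.6 and 90.4 CPM in WT, at 49.9 and 47.2 CPM in line 2, and at 119 and 120 CPM in line 1 (line 2 over line 1, log2 -1.29, adjusted p = 8.5e-13). Cdx2, which defines the lineage, was not called (log2 0.03). Over the keratin family 5 of 13 tested genes fell and 0 rose. Of 20 epithelial adhesion genes 9 rose and 6 fell, a share of falls near the background. Among them Cldn4 went from 129 and 134 CPM to 62.3 and 65.8 CPM (log2 -1.04 ± 0.052) and Cldn3 fell by 1.46, while E-cadherin (Cdh1) was not called (log2 0.07).

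Defining markers placed all 4 libraries as ESCs. The 8 ESC markers summed to 5372 to 5519 CPM in WT and to 5785 to 5799 CPM in line 2. The 5 trophoblast markers summed to 90 to 94.1 CPM in WT and 88.7 to 95.9 CPM in line 2, nearly all from Cdx2, and the 5 primitive endoderm markers to 9.91 to 11.3 and 7.3 to 7.93 CPM. The mesoderm marker T was well above the floor, at 75.4 and 67 CPM in WT and 61.5 and 57.6 CPM in line 2. The neural markers Sox1, Pax6 and Olig2 summed to 3.59 and 3.15 CPM in WT and to 8.48 and 7.36 CPM in line 2. The blood markers Ptprc, Hba-a1 and Lyz2 were at 0 to 0.116 CPM in these libraries. Cd3e, a T cell receptor subunit gene, rose from 0.927 and 1.37 CPM to 7.13 and 6.12 CPM (log2 2.52 ± 0.23), whereas its neighbours Cd3d and Cd3g fell (log2 -0.51 and -0.38).

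FGF and ERK feedback genes were mostly higher. Of 23 tested, 16 rose and 5 fell, against 30% and 29.8% of all tested genes (median log2 0.44). The ERK-induced factor Etv4 was at 4 and 4.39 CPM in WT, at 23 and 22.1 CPM in line 2 and at 9.19 and 9.4 CPM in line 1 (line 2 over WT, log2 2.42 ± 0.12). The feedback inhibitors Spry4 (log2 3.65), Dusp6 (log2 1.40) and Spry2 (log2 0.71) rose. The receptor gene Fgfr3 was at 45.4 and 40.4 CPM in WT and at 7.99 and 7.92 CPM in line 2 (log2 -2.43 ± 0.098), while Fgfr1 rose by 0.55 and Fgfr2 by 0.81. Dusp9 fell by 0.74. Immediate early genes went the other way, with 12 of 19 lower and 2 higher (median log2 -0.59), among them Egr1 (7.42 and 6.83 CPM in WT, 2.07 and 1.4 in line 2, log2 -2.04 ± 0.23), Jun (log2 -0.79) and Fos (log2 -0.72). Both groups are used as readouts of the same kinase pathway, and on balance they moved in opposite directions.

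LIF, Wnt and p53 genes were divided. Their counts stand beside 30% of all tested genes that rose and 29.8% that fell. Of 16 LIF and STAT3 genes 7 rose and 5 fell. Socs3, the feedback inhibitor of STAT3, was at 80.1 and 79.7 CPM in WT, at 153 and 152 CPM in line 2 and at 102 and 98.3 CPM in line 1 (line 2 over WT, log2 0.93 ± 0.04). Of 16 Wnt targets 3 rose and 6 fell, with Ccnd1 higher (104 and 108 CPM in WT, 189 and 197 in line 2, log2 0.86 ± 0.041), Rnf43 lower (log2 -1.15 ± 0.16) and Axin2 not called (log2 -0.08). Of 21 p53 genes 3 rose and 9 fell. Phlda3 was at 71.8 CPM in both WT libraries, at 32.3 and 37.7 CPM in line 2 and at 68.5 and 68.4 CPM in line 1 (log2 -1.03 ± 0.064), and Cdkn1a fell by 0.21. Trp53 itself rose by 0.34.

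Cell cycle and energy genes moved by small amounts. Of all tested genes, for comparison, 30% rose and 29.8% fell. Of 31 G1/S and replication genes 17 rose and 4 fell (median log2 0.23), with the helicase subunit Mcm2 at 370 and 358 CPM in WT and 506 and 501 CPM in line 2 (log2 0.47 ± 0.031). The inhibitor Cdkn1b fell by 1.04. Of 35 mitosis genes 10 rose and 9 fell, near the shares of all tested genes (median log2 0.02). Cdc20, the activator of the anaphase-promoting complex, went from 165 and 163 CPM to 299 and 295 CPM (log2 0.85 ± 0.035) while the cytokinesis motor Kif23 fell by 0.58 ± 0.038. Ccnb1, Cdk1 and Birc5 were not called. Nuclear oxidative phosphorylation genes rose in 22 and fell in 10 of 59 cases (median log2 0.07), led by Atp5g1 (log2 0.62 ± 0.04). In 15 of the 59 line 2 was below line 1, and in 1 above it. Of 22 tricarboxylic acid cycle genes 10 rose and 4 fell, with Suclg2 higher in line 2 (92.6 and 99.2 CPM) than in WT (53.3 and 61.2 CPM) or line 1 (57.1 and 53 CPM).

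Protein synthesis and turnover gave a contrast between families, where 30% of all tested genes rose and 29.8% fell. Of 18 aminoacyl-tRNA synthetases 16 rose and 1 fell (median log2 0.31), including Aars at 395 and 384 CPM in WT and 580 and 574 CPM in line 2 (log2 0.57 ± 0.03). Of 39 tested genes under the proteasome naming pattern, which also takes in Psmc3ip, 31 rose and 2 fell (median log2 0.28). The 2 that fell were the immunoproteasome genes Psmb8 and Psmb9, and the testis-type subunit gene Psma8 was among those that rose. Of 72 cytosolic ribosomal protein genes 25 were lower, a share near the 29.8% of all tested genes, and 5 higher (median log2 -0.08). The lower count was 49 without WT replicate 1 and 16 without line 2 replicate 2. Of 27 integrated stress response genes, which also include Aars, 15 rose and 8 fell, the falls near the background share. The amino acid enzyme Cth (log2 0.96 ± 0.047) and the arginine transporter Slc7a3 (log2 0.81 ± 0.036) were higher. Ddit3 (log2 -1.01) and Cebpb (log2 -1.94) were lower.

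Membrane transport families leaned downward. The counts in this paragraph stand beside 29.8% of all tested genes that fell and 30% that rose. Of 267 tested solute carriers 106 fell and 49 rose, and their summed level went from 23616 and 23442 CPM in WT to 16904 and 16961 CPM in line 2. Most of the drop in the sum is that of the glucose transporter genes Slc2a3 and Slc2a1, already given above. Their means were 7277 and 2753 CPM in WT and 3354 and 860 CPM in line 2. Of 69 voltage-gated and potassium channel genes 29 fell and 14 rose (median log2 -0.41). Semaphorins, plexins and ephrins with their receptors fell in 22 and rose in 9 of 42 cases. The interferon list was divided, with 4 of 18 tested genes higher and 7 lower. H2-K1, a class I histocompatibility gene, was at 42.1 and 40.8 CPM in WT and 19.5 and 18 CPM in line 2 (log2 -1.15 ± 0.082), B2m fell by 0.83 and Tap1 by 2.31 on the log2 scale, and H2-D1 was not called (log2 -0.12). Annexins and S100 genes fell in 6 and rose in 4 of 14 cases, with Anxa4 (log2 -1.64), S100a13 (log2 -1.66) and S100a1 (log2 -2.0) falling with Anxa2.

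Line 2 and line 1 share their WT libraries, so only the direct test between them shows where they differ. It called 5454 genes (37.8%), 2680 of them higher in line 2 and 2774 lower, with 709 higher (4.92%) and 266 lower (1.85%) at least 2-fold. Against the shared WT, 7616 genes (52.8%) were called in line 1, of which 181 rose (1.26%) and 906 fell (6.29%) at least 2-fold. Among genes reaching 5 CPM in either KO line, Meg3, Rian, Rhox13, Fkbp6, Ufsp2 and Pet2 lead the direct test with differences of 6.62, 6.55, 5.63, 4.90, 4.12 and 3.77 (log2). On the lower side stood Vnn1, a pantetheinase, at 2.93 and 3.03 CPM in line 2 against 22.7 and 22.2 CPM in line 1 and 12.2 and 11.9 CPM in WT (line 2 over line 1, log2 -2.91, adjusted p = 6.6e-12). Col1a1 was at 2.93 and 2.53 CPM in line 2, at 11.3 and 12.9 CPM in line 1 and at 12.1 and 9.91 CPM in WT (log2 -2.15). Line 1 differed from WT upward at Vnn1 and hardly at Col1a1, and line 2 differed downward at both.

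The KO effect in line 2 was set against that in EG1 by an interaction in a fit over all 12 libraries. The difference between the 2 effects was called for 6550 of 14977 genes (43.7%), 3312 of them higher and 3238 lower for line 2. It reached 2-fold for 692 higher (4.62%) and 762 lower genes (5.09%). Within EG1, 1074 of 14016 genes (7.66%) were called, with 11 rising (0.0785%) and 44 falling (0.314%) at least 2-fold. Genes of the glycolysis list fell in both, with 14 of the 22 tested there lower in EG1 KO (median log2 -0.18; background 4.06% lower). The interaction was called lower for line 2 in 21 of the 23 listed genes (background 21.6%). Slc2a1 changed by -1.68 in line 2 and by -0.33 in EG1 (log2), from WT levels of 2763 and 2743 CPM against 609 ± 15.9 CPM (SD, n = 3). The Zscan4 genes moved in opposite directions, 5 of 5 higher in line 2 and 5 of 5 lower in EG1 KO. The interaction was called for all 5. They summed to only 3.77 and 4.57 CPM in OdG WT and can share reads as near-identical copies. The 5 are therefore not separate results, and their counts are a description. Germline genes rose in line 2 (24 of 28) but not in EG1 KO, where 0 rose (3.6% over all tested genes) and 3 fell. The interaction was called higher for line 2 in 23 of the 28 germline genes with a value (background 22.1%).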

How the data were processed

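RNA-seq libraries of 12 samples were made from Trizol RNA with the NEBNext Ultra kit, per the labels' protocols. The deposited tables, 1 per parental line, hold raw counts by gene symbol. Tools listed in the submitters' processing notes are HISAT2 2.1.0 and featureCounts 1.6.4, beside CASAVA and DESeq2, with the build mm10. Annotation, filters and strand setting were not given in the sources used here. Counts were tested with edgeR 4.0.16 (R 4.3.3; filterByExpr, TMM, quasi-likelihood, 1 mean per group, two-sided) on the 6 OdG libraries, on the EG1 libraries, and on all 12 for the interaction. Coordinates and promoters came from RefSeq tables, with 24299 symbols placed. The code was tested on simulated data. Alternatives were other normalizations and filters, DESeq2 1.42.0, glmTreat, a replicate block, and each library left out.

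Named genes were Etl4, the 12 largest changes per direction reaching 5 CPM in either group, without overlap of the groups, the 6 largest per direction at 100 CPM or more and in each further contrast, 6 nearly absent genes, and up to 4 called members per list by adjusted p. Predicted genes were passed over, and other list members were named after their values were seen. The members and lists were chosen with earlier results of these data known. Some genes that the rule also picked are left out of the text.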

Additional observations from a re-analysis of the deposited data

Results flagged for a closer look

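Among genes reaching 5 CPM in either KO line, line 2 differed from line 1 in the direct test (edgeR's quasi-likelihood test) most strongly upward at Meg3 (log2 6.62, adjusted p = 9e-16), Rian (6.55), Rhox13 (5.63), Fkbp6 (4.90), Ufsp2 (4.12) and Pet2 (3.77). It differed most strongly downward at Vnn1 (-2.91), Igf2os (-2.74), Igf2 (-2.54), Thbs1 (-2.24), Cryab (-2.23) and Col1a1 (-2.15). The genes were picked with both libraries of line 2 outside the range of both libraries of line 1, so that separation is part of the rule. Thbs1, a matricellular glycoprotein gene, was at 1.22 and 1.24 CPM in line 2, at 6.09 and 5.52 CPM in line 1 and at 2.72 and 2.37 CPM in WT. The small heat shock gene Cryab was at 2.44 and 2.47 CPM in line 2, at 10.2 and 13.1 CPM in line 1 and at 8.29 and 5.76 CPM in WT.

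The effect of the knockout in line 2 differed from that in EG1, by the interaction over 12 libraries and among genes reaching 5 CPM in some group compared, most strongly upward at Gnpda2 (log2 9.43), Tfap2c (8.19), Guf1 (8.05), Rian (6.47), Mirg (6.42) and Meg3 (6.16). It differed most strongly downward at St8sia2 (-5.03), Krt80 (-3.58), Igf2 (-3.29), Hrc (-2.81), Snhg18 (-2.70) and Fam114a1 (-2.67). St8sia2, a sialyltransferase gene, was at 10.5 and 9.14 CPM in WT and at 4.51 and 4.27 CPM in line 2, but listed at 0 in EG1 WT, so its value rests on almost no EG1 counts. Krt80 (0.163 CPM in EG1 WT and 0.266 in EG1 KO) and Igf2 (0.473 and 0.666 CPM) rest on few EG1 counts too. Without EG1 KO replicate 2 the value of St8sia2 was -1.17 (adjusted p = 1.00). Snhg18, a host gene of small nucleolar RNAs, went from 6.95 and 7.66 CPM to 1.4 and 1.91 CPM.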

How the results depend on the processing

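Genes called between line 2 and WT numbered 8628, with 6759 (DESeq2) to 8908 (no filter) over the alternatives, 7273 to 8483 with 1 library left out, and 4038 higher against 4587 lower after upper-quartile normalization. Between line 2 and line 1, DESeq2 called 3406 genes against 5454, and with 1 library left out 3680 to 6291 were called. The count of 2-fold changes, 1773, was 826 under the stricter filter and 681 with glmTreat, and the cause of the latter lies in its stricter null. The stricter filter tests fewer genes, and left 3 primitive endoderm genes lower (6 without it), 1 mesoderm gene higher (3), 3 2-cell-like (18), 3 Rhox (13), 2 PRAME-like (7), 2 Zscan4 (5), 1 feeder (3), 2 histone (9) and 1 protocadherin gene (2) higher, and 18 channel genes (29) and 1 olfactory receptor (3) lower. With no filter 14 histone genes were higher. DESeq2 called 5 maternally expressed imprinted genes (8) and 1 olfactory receptor lower, and 1 feeder and 0 protocadherin genes higher. With 1 library left out, ribosomal protein genes called lower ranged from 16 (without line 2 replicate 2) to 49 (without WT replicate 1), feeder genes called higher from 1 (without line 2 replicate 1) to 3, and protocadherins from 0 to 2. These causes were not tested. The named genes kept direction and call in 2494 repeats, and St8sia2 lost its call in 1 (-1.17).

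Replicate numbers did not pair the libraries: the correlation of deviations was 0.038 between WT and line 2, -0.004 between WT and line 1 and -0.003 between the KO lines. With the replicate block 8566 genes were called against WT, 5334 against line 1, 6442 in the interaction with EG1, and 1770 changed 2-fold. Each OdG group has 2 libraries, and where 1 was left out the lone library was assumed to vary like the others. Genes under about 1 CPM rest on fewer than 20 counts a library.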

Other observations

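Further gene groups are given here. Of 13 tested replication-dependent histone genes, out of 68 listed, 9 were higher in line 2 and 0 lower by edgeR's quasi-likelihood test (median log2 0.91). Over all tested genes 30% were higher and 29.8% lower. All 68 summed to 22.9 and 23.5 CPM in WT and to 44.1 and 42.9 CPM in line 2. At such low levels a member can enter the test through line 2 alone, which fixes its direction. The count and the median are therefore a description. Histone transcripts of this class mostly lack poly(A) tails, so their levels depend on how RNA was selected. Of 344 tested zinc finger genes 71 were higher and 90 lower. The intermediate filament gene Vim was at 59.9 and 57 CPM in WT and at 153 and 149 CPM in line 2 (log2 1.37), while the receptor gene Pdgfrb was at 31.6 and 29.4 CPM in WT and at 9.76 and 7.92 CPM in line 2 (log2 -1.79), so 2 genes of the feeder list moved in opposite directions.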
